A study of Drosophila melanogaster with 2 samples.

Results

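The regions described here are the 3755 entries of the pooled Hr38 ChIP-seq list that missed the authors' irreproducible discovery rate (IDR) threshold and whose summit fell in protein-coding sequence. They were chosen by 2 criteria, absence from the thresholded list and the position of the summit: inside a coding exon, outside any annotated UTR, and more than 500 bp from every transcription start site (TSS) of a protein-coding gene. They made up 19.5% of all 19279 pooled regions and 20.3% of the 18511 regions below the threshold. The other regions below the threshold had their summit in introns (6201), between genes (4088), at promoters (3055), in 3′ UTRs (701), in other exons (512) or in 5′ UTRs (199), and 768 regions passed the threshold.

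The study immunoprecipitated chromatin with an antibody against GFP from whole Drosophila melanogaster white prepupae, both sexes pooled, of a transgenic line of strain Hr38-GFP that stably expresses Hr38 fused to eGFP at its C terminus. All samples form 1 group of 2 biological replicates, labelled with an age of 48 h, and no untagged or untreated group was analysed here, so there is no comparison between conditions and no test. The labels name neither the promoter of the tagged gene nor the number of independent lines, and they point to a control experiment that was not analysed here. In whole animals a site bound in few cells and a site bound weakly in many cannot be told apart.

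Hr38 is the Drosophila ortholog of the Nr4a orphan nuclear receptors, zinc-finger transcription factors that can bind DNA as monomers at the NBRE, a single receptor site with a short A-rich extension. In flies it is known for roles in cuticle formation at metamorphosis, in carbohydrate metabolism and as a gene induced by neuronal activity. IDR sorts regions by how well their ranks agree between replicates and needs long lists with background regions kept in. Entries below the threshold can therefore mix background with weak signal. Factors of this kind are mostly studied at promoters and enhancers rather than in coding exons, and in flies they are richer in G and C than introns and intergenic sequence.

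The DNA at some of the highest-scoring of these regions is shown because base composition is taken up below, and the stretches give its range among the highest scores. Each line gives the 30 bases centred on the summit, read from the release 6 (dm6) assembly, 5′ to 3′ on the coding strand of the host gene, with every G and C in capitals.
SelR, methionine sulfoxide reductase, chr3R:10863645-10863674, minus strand: CGtGGCCaCGCCCaCCGCGGCGCCCattGC
CG32264, chr3L:3800073-3800102, minus strand: CtGGGCaCaGCGGCGGCCaaCGCaGCaGCa
CG10508, chr3L:21213211-21213240, plus strand: CCCCCttCGCaGCGGCaCCtCttCCaCaGC
Bicra, a subunit of a chromatin remodelling complex, chr3R:29098492-29098521, plus strand: CaGCCtCaGCCaGtCCaGCaGCaGCaGCaG
wts, the Hippo pathway kinase Warts, chr3R:30794299-30794328, minus strand: CGGCtCCatatCCGtatCCGGtGtGGGCGt
fru, the sex-determination transcription factor Fruitless, chr3R:18422982-18423011, minus strand: aCaatttGCGCaCCCaCtGCaaGttCaaGC
pip, the sulfotransferase Pipe, chr3L:19300156-19300185, minus strand: aaCGtGCGGGatCtGaaCaataCaCGCaaG
Nak, Numb-associated kinase, chr2L:18964931-18964960, minus strand: GaGatCCaaaaGtaCaCCaCtCtatCttat
In these stretches 24 of 30 bases were G or C at SelR, 22 at CG32264, 21 at CG10508, 20 at Bicra, 19 at wts, 15 at fru, 15 at pip and 11 at Nak. The run of CAG units at Bicra and the GCA and GCG units at CG32264 are coding repeats. Over 201 bp around the summit, GC content was 66.7% at CG10508 and 64.2% at wts, but 54.2% at Nak and 38.8% at pip. A high score thus did not require GC-rich sequence around the summit. Only 57.1% of the pip region is coding, so its value may not be that of the exon alone.

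The score is the authors' own value in each list, on a scale that the sources do not state, and it is used here only within a list. The coding-exon regions scored between 28.2 and 77.1 in the pooled list, with a median of 34.4, the same median to 3 digits as all 18511 regions below the threshold. Because the threshold had chosen them, their scores stop just under it: the highest of them stood at 77.1 and the lowest thresholded region at 78.0, with 17 regions of other classes in between. Over all classes the highest score below the threshold was 78.00 and the lowest thresholded score 78.04, so the pooled score alone separates the 2 sets. Their authors' -log10 q reached 1 in 22 of the 3755 and 2 in none of them. Every one was 380 bp wide with its summit in the middle, and how finely a summit places the signal was not measured. Coding exons held 2 of the 768 regions that passed, in Adk3, an adenylate kinase (score 83.0), and in CG15544 (78.7).

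The 20 highest-scoring coding-exon regions lay in genes of varied roles. The first was in CG13157, with a pooled score of 77.1, a replicate 1 score of 43.8 (rank 722 of 30000) and a replicate 2 score of 34.8 (rank 1105 of 29031). The second was in Gadd45, a stress-response gene, at 76.4 pooled, 36.7 in replicate 1 (rank 1320) and 46.5 in replicate 2 (rank 514), the highest replicate 2 score of any coding-exon region. The region in CG3984 scored 73.9 and rested on replicate 1, where it scored 57.5 (rank 384), with no overlapping region in replicate 2. It was the only 1 of the 20 absent from a replicate list.

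Several of these 20 hosts are regulators of growth, RNA silencing or signalling. At Nak, a kinase that acts in endocytosis, the score was 73.5 pooled, 33.0 in replicate 1 and 36.9 in replicate 2. AGO1, the Argonaute of the microRNA pathway, scored 71.4 pooled, 40.1 in replicate 1 and 29.2 in replicate 2. Partners in the Hippo growth pathway were among them. The coactivator gene yki scored 69.1 pooled, 39.7 in replicate 1 (rank 990) and 26.9 in replicate 2 (rank 2609). The gene of its upstream kinase, wts, scored 66.2 pooled, 41.8 in replicate 1 (rank 823) and 23.3 in replicate 2 (rank 4426). At fru the score was 65.1 pooled and 46.0 in replicate 1 (rank 642), against 17.9 in replicate 2 (rank 11246), a wide gap within a single region. SelR went the other way, with 26.4 in replicate 1 (rank 5537) and 36.2 in replicate 2 (rank 971). The remaining hosts of the 20 were CG11906, vimar, hppy, CG32264, Or46a (an odorant receptor), pip, Bicra, Sarm (an NAD hydrolase of axon degeneration), CG10508, CG31522 and kumpel, with pooled scores between 65.1 and 71.6.

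Agreement of the replicates limits what any single region shows. Of the 3755 regions, 3003 (80.0%) overlapped a region of the replicate 1 list by at least 1 bp and 2074 (55.2%) one of the replicate 2 list. Both lists held 1463 of them (39.0%), against 41.9% of all regions below the threshold and 98.4% of the thresholded regions. Replicate 1 alone held 1540 (41.0%), replicate 2 alone 611 (16.3%), and 141 (3.75%) were in neither list. The lists end at a score of 15.9 in replicate 1 and 12.5 in replicate 2, so an absent region may have scored lower. All regions below the threshold leaned the same way, with 75.1% in replicate 1 and 63.6% in replicate 2, as did each other class except promoters (70.3% and 76.1%), for example intergenic regions (77.6% and 57.5%) and intron regions (73.6% and 66.5%). The median region overlapping both lists scored 39.0 in the pooled list, against 33.0 for replicate 1 alone, 32.1 for replicate 2 alone and 30.2 for neither.

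Overlap with both lists rose with the pooled score. It was 15.4% in the lowest of 10 equal bins of the coding-exon regions (scores 28.2 to 29.2), 35.5% in bin 6 and 80.1% in the highest (46.6 to 77.1). The pooled score is built from both libraries, so this rise is partly given by construction. Where both lists held a region, the heights in them hardly tracked each other: Spearman's correlation of the 2 replicate scores was 0.07 over 1463 coding-exon regions, against 0.19 over the other regions below the threshold and 0.50 over thresholded regions. It was also low in 5′ UTRs (0.08), intergenic regions (0.10) and 3′ UTRs (0.13), and highest below the threshold at promoters (0.24). These correlations run across regions of the same libraries, with a control file in common, and selection on the pooled score narrows the range that they cover. Pooled scores followed replicate 1 (0.55) more than replicate 2 (0.39) at coding exons.

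**Figure D1:**
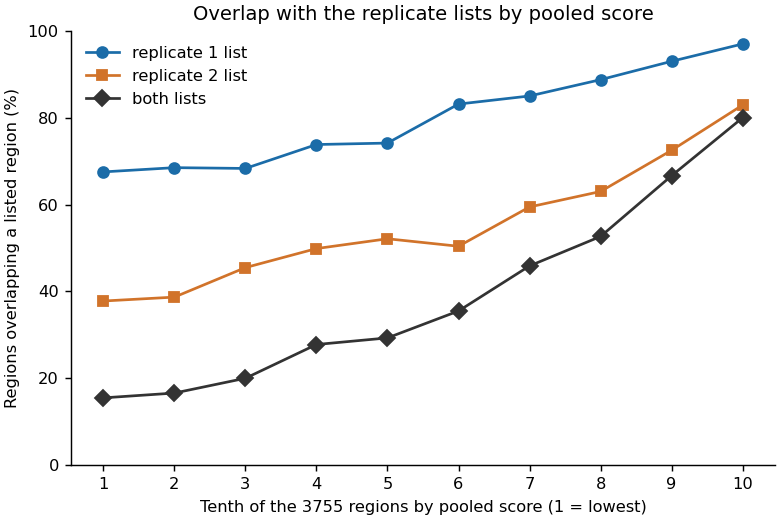
Percentage of the 3755 coding-exon regions below the IDR threshold that overlap a region of the replicate 1 list, the replicate 2 list or both by at least 1 bp, by bin of the pooled score (10 equal bins). Overlap with both lists is 15.4% in the lowest bin and 80.1% in the highest, and replicate 1 lies above replicate 2 in every bin.

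**Figure D2:**
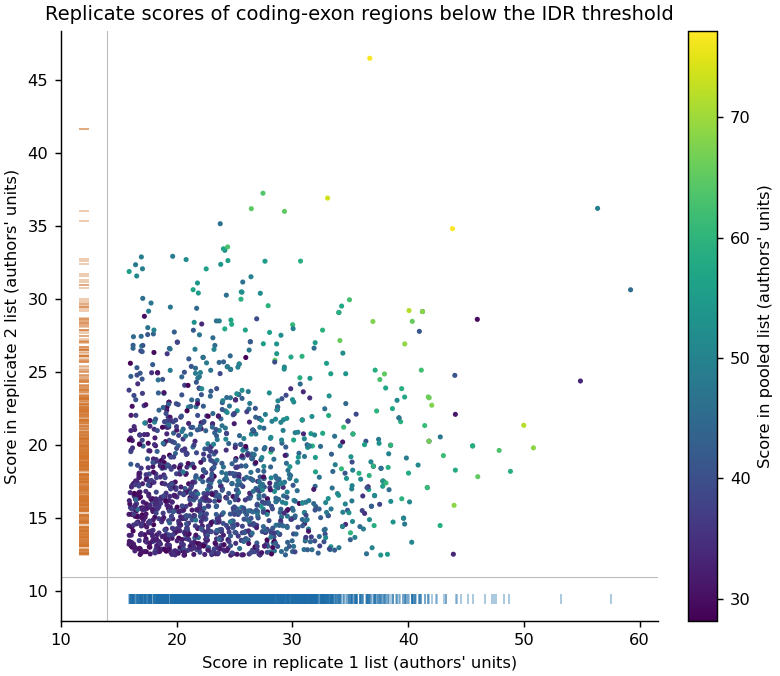
Score in the replicate 1 list (x axis) against score in the replicate 2 list (y axis), in the authors' units, for the 1463 coding-exon regions in both lists, coloured by pooled score. Ticks below and left of the grey lines are the 1540 regions in replicate 1 alone and the 611 in replicate 2 alone, and the cloud shows little slope (Spearman correlation 0.07).

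Some regions ranked high in both replicates. By the worse of the 2 ranks, the best pair belonged to a region in Kdm2, a histone demethylase gene (402 in replicate 1 and 968 in replicate 2), and a region in Adk3 also had a high pair (357 and 1662). Both lay beside thresholded peaks, with summits 214 bp away at Kdm2 and 311 bp away at Adk3, and the replicate 1 region taken for each also overlapped that peak. Their ranks are therefore not independent of the peaks, and their pooled scores were 49.1 (rank 2600) and 45.3 (rank 3515). Between them came CG13157 and Gadd45 with the ranks given above, with thresholded summits 19216 and 2855 bp away. Replicate regions that also overlapped a thresholded peak were behind 4 of the 3003 overlaps with replicate 1 and 3 of the 2074 with replicate 2. CG10132, Vajk4, Nak, AGO1 and CG32264 were the other hosts among the 10 regions with the best pairs of ranks. CG32264 filled 2 of the 10 places with overlapping regions that shared the same replicate regions (ranks 861 and 1999), so that pair is counted 2 times.

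At the other extreme, some regions near the top of a replicate list sat at the bottom of the other. In PCB, the pyruvate carboxylase gene, the region ranked 718 in replicate 1 (score 43.9) and 28696 in replicate 2 (12.5). In mamo, a zinc-finger transcription factor gene, the ranks were 1211 and 28974, in Ama, an immunoglobulin-domain adhesion protein, 1148 and 28729, and in Oseg5, an intraflagellar transport gene, 1374 and 28522. The homeobox gene otp showed the reverse, with rank 29906 in replicate 1 (score 15.9) and 1448 in replicate 2 (31.9). Its pooled score of 55.4 still placed it at rank 1768.

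GC content was higher at these regions than in the rest of the list. The median over 201 bp around the summit was 56.7% (interquartile range 52.2 to 61.2%), against 52.2% for the coding sequence in which a summit could have met the criteria, 44.3% for the other regions below the threshold and 37.8% for thresholded regions. Of the 3755, 2750 (73.2%) lay above the median of that eligible coding sequence. The excess was of like size at each codon position. In frame, G and C took 59.6% of codon position 1, 45.8% of position 2 and 67.4% of position 3 at the regions, against 55.6%, 41.5% and 63.0% in all eligible coding sequence, which is 3.92, 4.25 and 4.39 percentage points more.

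Measured per length of sequence, the density of coding-exon regions climbed through the whole GC range. It was 6.09 per 100 kb of eligible coding sequence below 40% GC, 15.9 between 50 and 55%, 49.2 between 60 and 65% and 107 above 70%. Above 65% there were 94.3 regions per 100 kb (323 regions) and below 45% there were 7.90 (241 regions), a ratio of 11.9. Both replicate lists, taken alone and outside the thresholded peaks, showed a gradient, but not the same one. In replicate 1 the ratio was 8.62, with a rise at every step up to 70% GC. In replicate 2 it was 3.25, the density being 19.2 per 100 kb below 40% GC, 18.4 between 45 and 50%, 19.9 between 50 and 55% and 78.9 above 70%. Coding-exon regions of replicate 2 outside the thresholded peaks had a median GC content of 54.2%, against 41.3% for its other regions, and those of replicate 1 56.2%, against 45.8%.

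A gradient was also present outside coding exons. Density of intron regions below the threshold was 8.83 per 100 kb of intron under 40% GC and 34.2 between 60 and 65%, and the intron ratio was 4.51, although only 4 intron regions lay above 65%. Intergenic regions were at 6.17 per 100 kb below 40% and 25.5 between 55 and 60%, then 12.4 between 60 and 65%. At the same GC content of 50 to 55%, coding exons (15.9) lay below introns (21.4) and intergenic sequence (20.7), whereas between 60 and 65% they lay above both (49.2, against 34.2 and 12.4). What lies behind the gradient was not tested. Within the coding-exon regions the score was only loosely related to GC content, with a Spearman correlation across regions of 0.16 for the pooled score, 0.14 for the replicate 1 score and -0.04 for the replicate 2 score.

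**Figure D3:**
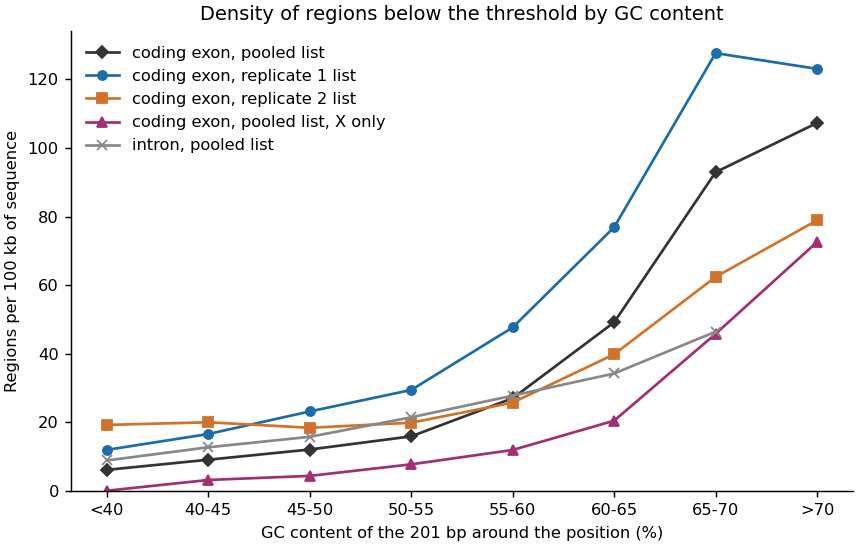
Regions below the IDR threshold per 100 kb of sequence (y axis) by GC content of the surrounding 201 bp (x axis): coding-exon regions of the pooled list, of each replicate list and of the pooled list on X, and intron regions of the pooled list; bins with under 1000 bp of sequence are left out. All lines for coding exons end higher than they start, and the replicate 2 line stays near 19 per 100 kb until 55% GC; the X points below 45% GC rest on 6 regions and the last on 8, and the last intron point on 4.

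Coding repeats and receptor motifs were counted in the same 201 bp windows, on both strands. A run of 3 CAG copies occurred at 311 regions (8.28%). On the coding strand that unit reads as glutamine, alanine or serine by frame, and the count does not separate the strands. The run was in 4.80% of 178347 eligible coding windows taken every 100 bp and in 2.44% of the other regions below the threshold. Weighting the eligible windows to the GC content of the regions brought their share to 7.27%. For 3 copies of GCC the shares were 4.05% at the regions, 1.68% of eligible windows and 3.66% after weighting. The NBRE, spelled AAAGGTCA, was found at 24 of the 3755 regions (0.639%), against 0.606% of eligible windows, 0.508% after weighting and 0.684% of the other regions below the threshold. Its core AGGTCA, which the NBRE contains, was at 313 regions (8.34%) and in 7.85% of eligible windows. GAGAGAG, the repeat read by GAGA factor, stood at 1.09% of the coding-exon regions, against 1.04% of eligible windows, 4.31% of the other regions below the threshold and 6.51% of the thresholded regions. A match only says that the letters are in the window.

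Density was lower on X than on the autosomes. X held 354 regions, or 11.2 per 100 kb of eligible coding sequence, against 23.3 on the autosomes, a ratio of 0.483. The ratio was 0.577 in the replicate 1 list, 0.567 in the replicate 2 list and 0.652 for intron regions of the pooled list. Eligible coding sequence on X was richer in GC (55.5%) than on any autosome (41.6 to 53.6%), and in every GC bin the X density was under the autosomal one, for example 20.4 against 60.4 per 100 kb between 60 and 65% GC. Males carry a single X and the animals of both sexes were pooled, so copy number and binding cannot be told apart. The 4 large autosomal arms lay between 22.3 (2L) and 24.5 (3L) per 100 kb. Chromosome 4 held 14 regions (5.73 per 100 kb), with 7.78 per 100 kb in replicate 1 and 22.9 in replicate 2, where the large autosomal arms lay between 25.2 and 26.2.

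Of the 12107 protein-coding genes with eligible coding sequence, 2873 hosted at least 1 region (23.7%). Most hosts, 2242, had a single region, 454 had 2, 129 had 3, 30 had 4, 14 had 5, 1 had 6, 1 had 7 and 2 had 8. Hosting followed length. Among genes with under 500 bp of eligible coding sequence 4.52% were hosts, among those with 8000 bp or more 78.5%, and the median was 1818 bp in hosts and 793 bp in other genes. Density ran the other way at the long end, with 23.1 regions per 100 kb in genes of 500 to 1000 bp and 14.3 in genes of 8000 bp or more. A thresholded peak lay in the gene or within 500 bp of it for 259 hosts (9.01%) and for 533 of 9234 other genes (5.77%). Hosts are also longer, and the part of length in this was not tested. Only 16 of the 3755 regions had a thresholded summit within 1000 bp, and the median distance was 44511 bp. The nearest protein-coding TSS was a median of 2102 bp away. Along the longest coding sequence of the host, density was 20.4, 19.4, 19.6, 22.0 and 23.2 per 100 kb from the start to the end in 5 equal steps, and 83 regions lay in exons outside it.

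For each gene, and for each gene list below, an expected number was computed from the pooled densities per GC bin, for X and autosomes separately. It restates base composition and length and is not a test. The genes with the most regions differed widely by this measure. The titin-like sarcomere gene sls had 8 regions, against 8.20 expected from 55457 bp, and dpy, which encodes a giant protein of the apical matrix, had 8, against 15.4 from 68847 bp. The sex-determination gene fru had 7 in 4241 bp, 1 pair of them overlapping, against 1.99 expected. They lay towards its 3′ end, which holds nearly all of its coding sequence, so the criteria fix that position, and 3 of the 7 were in both replicate lists. The active zone gene brp had 6, against 3.50, and 3 of those 6 were in both lists.

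Of the 14 genes with 5 regions, 11 are described here, ties being taken in order of chromosome and start. Thrombospondin (Tsp) had its 5 in 2781 bp, against 0.706 expected, and the axon guidance receptor gene robo3 its 5 in 4067 bp, against 1.21. CG14535 had 5 against 1.24 and Pde1c, a cyclic nucleotide phosphodiesterase gene, 5 against 1.32. Counted by their own summits and outside the thresholded peaks, the replicate lists as a whole held 6489 coding-exon regions in replicate 1 and 4220 in replicate 2. By that count Tsp had 4 in replicate 1 and 2 in replicate 2, Pde1c 4 and 1, and pip 6 and none, while bchs and pum each had 5 and 4, and CG32264 and ab each 4 and 3. Overlap gives other numbers: of the 5 pooled regions of pip, 5 overlapped a replicate 1 region and 1 a replicate 2 region, and for Pde1c 4 and 2 did. For pip, CG32264, pum (a translational repressor), ab (a zinc-finger factor), bchs (an autophagy scaffold), Root (ciliary rootlet) and osa (a SWI/SNF subunit) the expected number lay between 1.26 and 4.27. Neighbouring regions can share signal: 109 neighbouring pairs among the 3755 overlapped, and 200 of the 3003 regions found in replicate 1 shared their replicate region with another. Among the genes above, fru, Tsp, robo3, CG14535, Root and osa each held 1 overlapping pair and CG32264 held 2. Their counts can therefore hold the same signal more than 1 time.

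**Figure D4:**
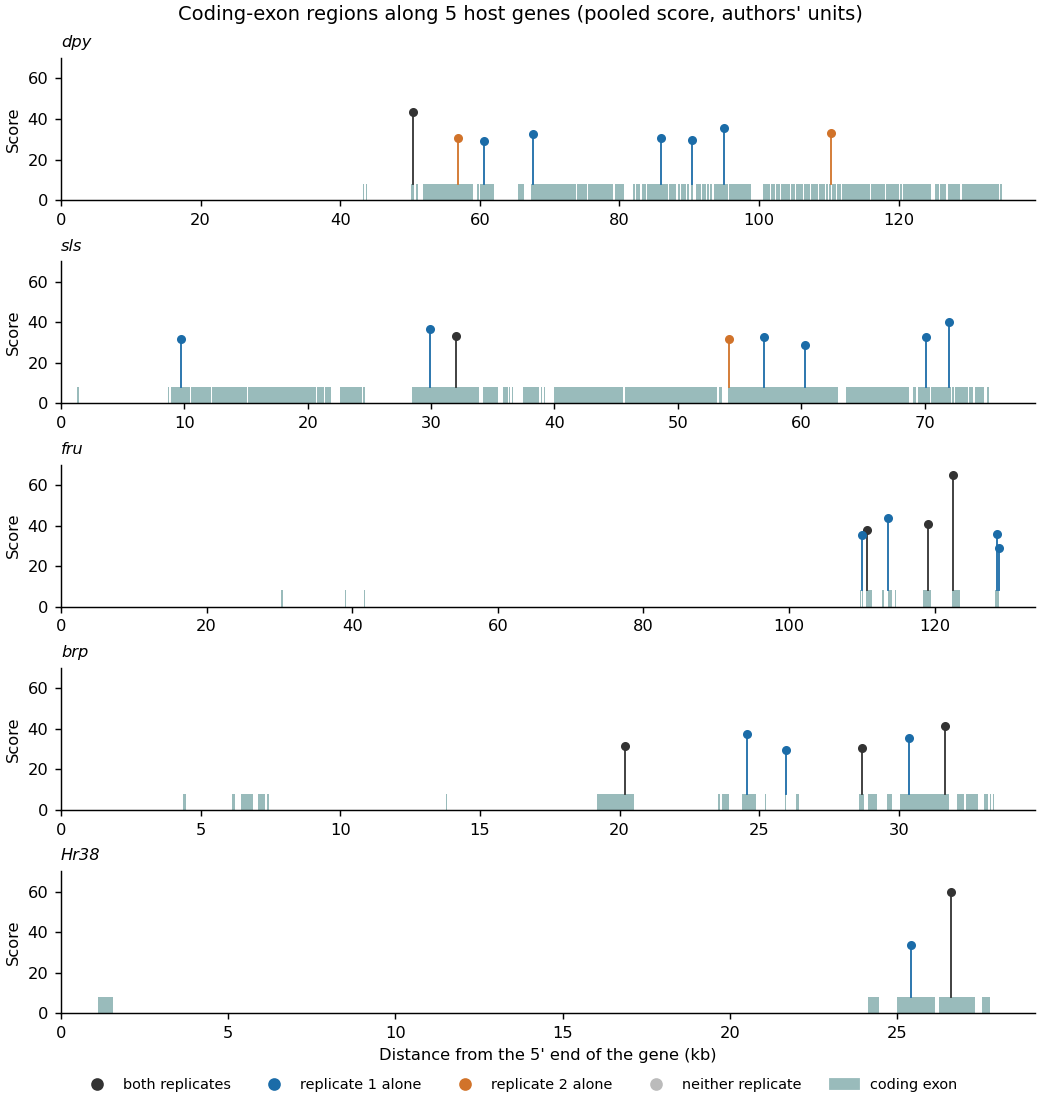
Coding-exon regions along dpy, sls, fru, brp and Hr38: distance of the summit from the 5′ end of the gene in kb (x axis) and pooled score in the authors' units (height of each pin), with coding exons as boxes and colour giving the replicate lists that hold the region. Regions of fru crowd at its 3′ end, as its coding exons do, and include the highest pin (65.1), and those of dpy and sls are spread and mostly in replicate 1 alone.

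Hr38, the gene of the tagged factor, hosted 2 coding-exon regions in 2941 bp, against 1.39 expected. The stronger, at 59.9 in the pooled list, scored 37.3 in replicate 1 (rank 1256) and 22.4 in replicate 2 (rank 5125). The weaker, at 33.5 pooled, scored 23.03 in replicate 1 (rank 9824) and had no region in replicate 2. Within the gene a further 7 regions below the threshold were classed as intron and 2 as other exon. The tagged line carries these exons in its fusion gene as well, and signal from the fusion copy and the native copy cannot be told apart.

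Developmental regulators had the highest densities among the gene lists in the pooled list, but not in each replicate. Over all genes the pooled list had 21.1 regions per 100 kb, that of replicate 1 had 36.4 and that of replicate 2 had 23.7. Hox and segmentation genes stood at 58.0 per 100 kb, with 13 of 27 genes as hosts and 19 regions, against 15.1 expected from their GC content and arm. Of their eligible coding sequence 45.1% lies above 60% GC. Replicate 1 gave 85.4 per 100 kb and replicate 2 39.7 in this list. Its top hosts were the Hox genes Abd-B (59.8) and Ubx (46.6) and the pair-rule gene hry (49.2, replicate 1 alone). Nuclear receptors reached 40.6 per 100 kb (13 of 20 genes, 19 regions, 17.7 expected), with 44.8 in replicate 1 and 40.6 in replicate 2. Highest among them were Hr38, dsf (44.1, replicate 1 alone) and Hr51 (43.4, replicate 1 alone). Genes of the ecdysone cascade reached 34.9 (10 of 19 genes, 16 regions, 16.2 expected), with 50.2 in replicate 1 and 28.3 in replicate 2. They were led by the coactivator gene tai (57.8, replicate 1 alone), Eip93F (50.4) and Eip74EF (46.1). Cuticle proteins (68.8) and proteasome subunits (51.3) were denser than either list in replicate 1, and cytosolic ribosomal proteins (51.0) were denser than all of these in replicate 2. For the nuclear receptor and ecdysone lists the number of regions was within 2 of the number expected.

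Genes of signalling, chromatin and transcription lay close to the average of all genes. The Notch, EGFR, Wnt, Hedgehog and BMP list had 23 regions, against 24.7 expected, with the ligand genes hh (50.3) and dpp (47.6) and the receptor gene ptc (48.98) at the top. Insulin, TOR and growth genes had 12, against 11.4, with yki, wts and mTor (41.9, replicate 1 alone) highest. Chromatin regulators had 37 regions in 22 of 34 genes, against 34.7, among them osa (57.8), Pc (52.5, the Polycomb gene) and ash1 (52.1), each in both replicate lists. RNA polymerase II and Mediator genes had 14, against 13.99. In both replicates these 4 lists stayed between 0.553 and 1.23 times the number expected for that replicate.

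Apart from cuticle proteins, the structural gene lists had no higher density in the pooled list than all genes. Most of them held long genes and many regions. Muscle and sarcomere genes had 34 regions (17.0 per 100 kb, 39.3 expected), with Tm1 (58.4), Prm (46.2, replicate 1 alone) and Obsc (45.9) highest. Cytoskeletal scaffolds and motors had 30 (36.6 expected), cell-surface giants 38 (42.5 expected), and chitin and apical matrix genes 29 (37.2 expected). Basement membrane and other extracellular matrix genes had 18 (22.9 expected), led by the collagen gene vkg (59.0) and the laminin gene wb (52.4). Cuticle proteins had 33.2 per 100 kb, but 27.6% of their coding sequence lies above 60% GC, against 11.4% over all genes, and 14 regions compare with 15.4 expected. Mucins and other tandem-repeat proteins had the lowest density of the lists with a host, 4.52 per 100 kb, and axonemal dynein heavy chains were at 7.74.

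Tissue marker lists gave small numbers. Fat body genes had 9 regions in 8 of 14 genes, against 4.71 expected, and 1 of the 9 was in both replicate lists. At the top were Fbp1 (41.9) and the larval serum protein gene Lsp1beta (40.8), each in replicate 1 alone, and Hsl (36.4). In the replicate lists the ratio of observed to expected regions, 1.91 in the pooled list, became 1.29 and 1.07. Neuronal genes had 13 regions, of which brp accounts for 6, against 11.2, hemocyte genes 12, against 13.6, midgut genes 3, against 4.23, and germline and testis genes 4, against 5.90. Salivary glue and puff genes (8 with eligible sequence) and histone genes (31) hosted none, with 0.940 and 1.40 expected. Chemoreceptors, the receptors of smell and taste, had 30 regions in 28 of 172 genes (16.3%, against 23.7% of all genes). Their density was 18.3 per 100 kb, against 21.1 over all genes, and 1.10% of their coding sequence lies above 60% GC. From GC content and arm 20.3 regions were expected, a ratio of 1.48 that was 1.67 in replicate 1 and 1.13 in replicate 2. The highest chemoreceptor region, in Or46a, had a pooled score of 67.9 at a GC content of 40.8%.

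Housekeeping and metabolic lists divided the replicates most clearly at cytosolic ribosomal protein genes. In the pooled list 2 of 78 such genes hosted a region, the higher in RpL4 (45.5, both replicates), which is 7.84 per 100 kb, against 7.90 regions expected. The replicate 1 list had 4 regions there (15.7 per 100 kb, 12.8 expected). Replicate 2 had 13 (51.0 per 100 kb, 7.47 expected) in 11 genes, of which RpL4 and RpS6 also had a region in replicate 1. The highest of the 13 was in RpL19, with a replicate 2 score of 25.6 (rank 3161), and their median GC content was 61.7%. The other 12 had ranks from 10681 to 26232. Ribosomal protein genes are among the most highly transcribed genes of growing tissue. Expression was not measured here, and what divides the replicates at these genes was not tested.

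Other lists of this kind were nearer to all genes or below. Mitochondrial ribosomal protein genes had 2 regions (4.57 expected), cytochrome P450 genes 10 (15.3), translation factors 8 (10.2), heat shock and chaperone genes 11 (14.3) and nuclear pore genes 10 (12.3). Proteasome subunits had 8 (7.73), glutathione and UDP transferases 9 (8.14), digestive proteases and serpins 8 (8.29), fatty acid and lipid synthesis genes 14 (13.7), glycolysis and carbohydrate genes 8 (9.40), voltage-gated and ligand-gated channels 27 (24.4), and the transposon and small RNA pathway 8 (7.92). AGO1 and Dcr-1, both of the small RNA pathway, had pooled scores of 71.4 and 51.0 and were present in both replicate lists. With counts this small, a shift of a few regions between replicates changes a list's ratio, as the fat body and ribosomal protein lists show.

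**Figure D5:**
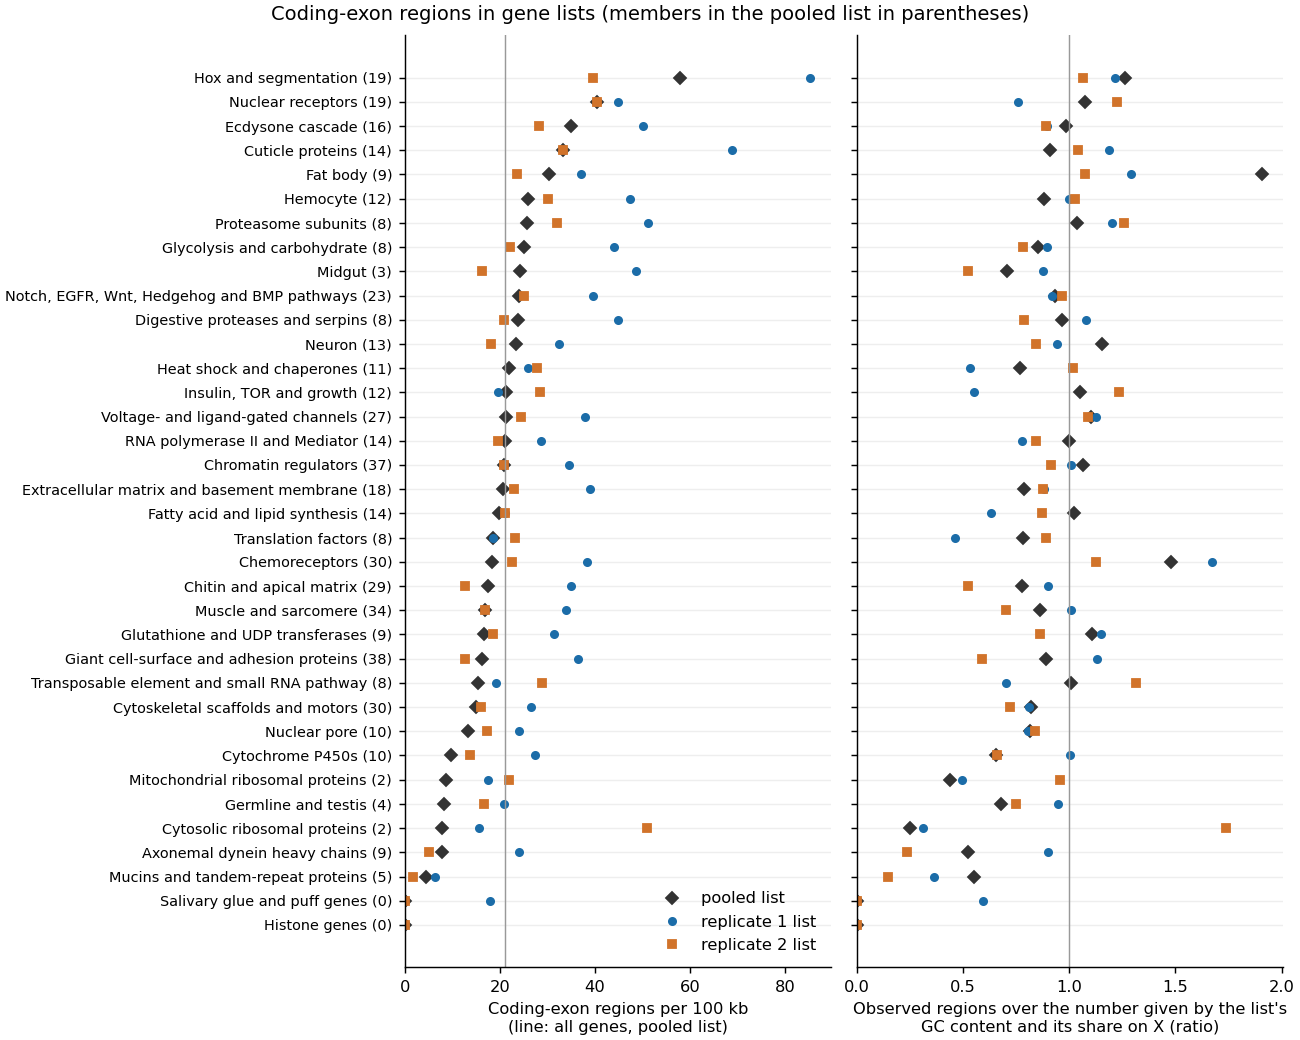
Left, coding-exon regions below the threshold per 100 kb of eligible coding sequence in 36 gene lists, for the pooled list and each replicate list; right, the observed number over the number given by GC content and share on X in the same list (ratio). Hox and segmentation genes are highest in the pooled list on the left (58.0), and on the right cytosolic ribosomal proteins lie at a ratio of 0.253 pooled, 0.312 for replicate 1 and 1.74 for replicate 2.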

How the data were processed

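Whole prepupae of 1 group, in 2 biological replicates, were analysed from lists in the narrowPeak layout on dm6. Per the deposited text files, a replicate's list rests on its own alignments with a control file, the pooled list on both sets of alignments with the same control, and the thresholded list on those 3 lists. The authors deposited for each region a score, whose scale is not stated, and, by the narrowPeak convention, a -log10 q value. The sources used here name no aligner, peak caller or IDR threshold. Library depth is unknown, so no interval from read counts is given. Lists on dm3 were not used.

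Summits on the chromosome arms were classed with the Ensembl release 115 annotation in the order promoter (within 500 bp of a protein-coding TSS), UTR, coding exon, any further exon, intron, intergenic. Eligible coding sequence is the 17834419 bp that could give a coding-exon call. GC content was taken over 201 bp. For overlap, the highest-scoring replicate region sharing at least 1 bp counted, and ranks are among regions on the arms. Regions are not replicates, so no test was run. Bases come from the RefSeq release 6 assembly. Regions and 36 gene lists were chosen with earlier results of these data known, and after they were seen 5 lists lost genes that did not belong, among them a gene matched to the histones by its symbol. Named genes are the hosts of the 20 highest scores, the 15 genes with most regions (ties by chromosome and start), hosts of the 10 best pairs of replicate ranks and of the 5 largest differences, up to 3 top hosts per list, and Hr38. RpL19, RpS6 and CG15544 were named after their values were seen. Scripts were tested on simulated data and run in Python 3.11.15 with numpy 2.4.6, pandas 2.3.3, scipy 1.17.1 and matplotlib 3.10.9.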

Additional observations from a re-analysis of the deposited data

How the results depend on the processing

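No paired analysis was possible because there is 1 group and no test. Of 37 alternative values, 19 stayed within the limits set for the main value and 18 moved. The 19 include the settings that took the middle of the region in place of the summit. Every coding-exon region has its summit there, so those values say nothing about stability. With a distance to the TSS of 250 or 1000 bp, the share of regions below the threshold in coding exons was 22.2% or 16.2% and the share of hosting genes 25.8% or 18.6%, as both settings change the sequence that can qualify. Overlap with both lists was 32.6% when 50% of the region had to be covered, 32.5% with the summit inside the replicate region, and 56.2% in the better-scoring 50% by score, where hosts were 13.1% of genes. The correlation of replicate scores was 0.087 with 50% overlap and -0.029 in the better-scoring 50%. Leaving out a replicate gave 4220 to 6489 coding-exon regions, 15.01 to 22.2% of regions outside the thresholded peaks, 26.7 to 34.6% of genes as hosts, 14.6 to 22.8 regions per 100 kb on X and a GC ratio of 3.25 to 8.62; without replicate 1 that ratio is 3.25, against 11.9 pooled. On X alone the ratio was 25.3, with 6 regions below 45% GC. The X and GC ratio settings were added after seeing the data. The replicate lists are longer than the pooled list. Only 2 libraries, unknown depth and no untagged control here limit every value.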
